A study of Arabidopsis thaliana with 22 samples.

Results

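The cytochrome P450 genes described here are the 23 whose symbol in the annotation of the Affymetrix ATH1 array begins with CYP, 2 or 3 digits and a letter, each measured by 1 probe set that is assigned to that gene alone. They were taken from 22746 probe sets. Of the 23 genes, 19 belong to the CYP71B subfamily and the other 4 are CYP51G2, CYP78A9, CYP79A2 and CYP84A4. A further 2 probe sets that join a P450 gene with another gene were left out. The TAIR10.1 gene table holds 236 genes with such a symbol, and 213 of them have no single-gene probe set under that name in the annotation used, so that they were not analysed here. CYP82C4, which acts in the synthesis of a coumarin that roots secrete when Fe is short, and its close relative CYP82C3 are among those 213.

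The arrays measured transcript abundance in roots of Arabidopsis cv. Landsberg erecta, which had grown hydroponically with Fe and were then moved to Fe-free (Fe-deficient) or Fe-replete (Fe-sufficient) nutrient solution. All plants, controls included, were rinsed in EDTA at the transfer. Several plants were pooled for each harvest. Each medium had 3 arrays for the harvests of 0, 1 and 6 h and 2 arrays for 24 h, and the labels call them biological replicates. Fe-deficient plants were kept only where their chelate reductase activity had risen at 24 h, so the Fe-deficient groups had been selected for a response, and a harvest at 0.5 h was not analysed here. No sort of cells was made, and a change in the share of a cell type cannot be told apart from a change in RNA per cell.

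Cytochrome P450s are monooxygenases that carry Fe in a heme group. Most plant members sit in the membrane of the endoplasmic reticulum, receive electrons from a P450 reductase and hydroxylate or otherwise oxidise small molecules such as phenylpropanoids, glucosinolate precursors, sterols, fatty acids and hormones. The family is large in plants, and CYP71B genes often lie side by side as copies on a chromosome. In the order of genes in TAIR10.1, 17 of the 23 lay next to another P450 gene and 11 next to another of the 23. The runs were CYP71B21, CYP71B22 and CYP71B23, then CYP71B34, CYP71B35, CYP71B36 and CYP71B37, then CYP71B28 with CYP71B29 and CYP71B5 with CYP71B30P. TAIR10.1 lists CYP51G2, a relative of the sterol 14-demethylases, and CYP71B27 as transcribed pseudogenes.

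The values are linear intensities with 1 value per probe set and array, and the median intensity of an array lay between 181 and 210. Summed intensities of the root markers PYK10 and EXPA7 were 9249 to 17079 over the arrays, and those of the shoot markers RCA and LHCB4.1 were 128.9 to 447.6. The replicate number carried a large difference of its own. Between replicate 1 and replicates 2 and 3 at 0, 1 and 6 h, 28.9% of all probe sets had an adjusted p under 0.05 (limma with the group as a term, Benjamini-Hochberg). That fit treated each array as independent, although arrays of the same number deviated together. The share thus describes these arrays, not the spread between replicate numbers. At 24 h the split of the arrays did not follow the same numbers: Fe-deficient replicate 1 deviated with Fe-sufficient replicate 2 (r = 0.41 over probe sets, which are not independent), not with Fe-sufficient replicate 1 (r = -0.41). With 2 arrays in a group their deviations mirror each other, so the second value follows from the first. Results that depend on this are given with the numbers as a block, or from replicates 2 and 3 alone.

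Only 9 of the 23 probe sets reached a mean intensity of 100 over the 22 arrays, which is 39.1%, compared with 62% of all probe sets. These were CYP51G2, CYP71B5, CYP71B6, CYP71B22, CYP71B23, CYP71B28, CYP71B29, CYP71B34 and CYP71B37. Of them, CYP71B6, CYP71B22, CYP71B23, CYP71B28 and CYP71B29 exceeded 100 on all 22 arrays. The steadiest was CYP71B6, an enzyme that acts on indole-3-acetonitrile, with 4942 to 8709, a range of 1.76-fold. CYP71B29 ranged over 2.07-fold, from 249.1 to 515.4. The other 14 probe sets had means below 100, and 11 of these 14 exceeded 100 on no array at all. CYP79A2, which makes phenylacetaldoxime, a precursor of benzylglucosinolate, read 1.1 to 13.0 on the 22 arrays. Among the dim probe sets the median standard error of an Fe comparison at 0, 1 or 6 h was 0.84 on the log2 scale, against 0.41 among the 9 brighter ones. No intensity of one probe set can be set against that of another, since probes differ in how strongly they bind.

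**Figure D1:**
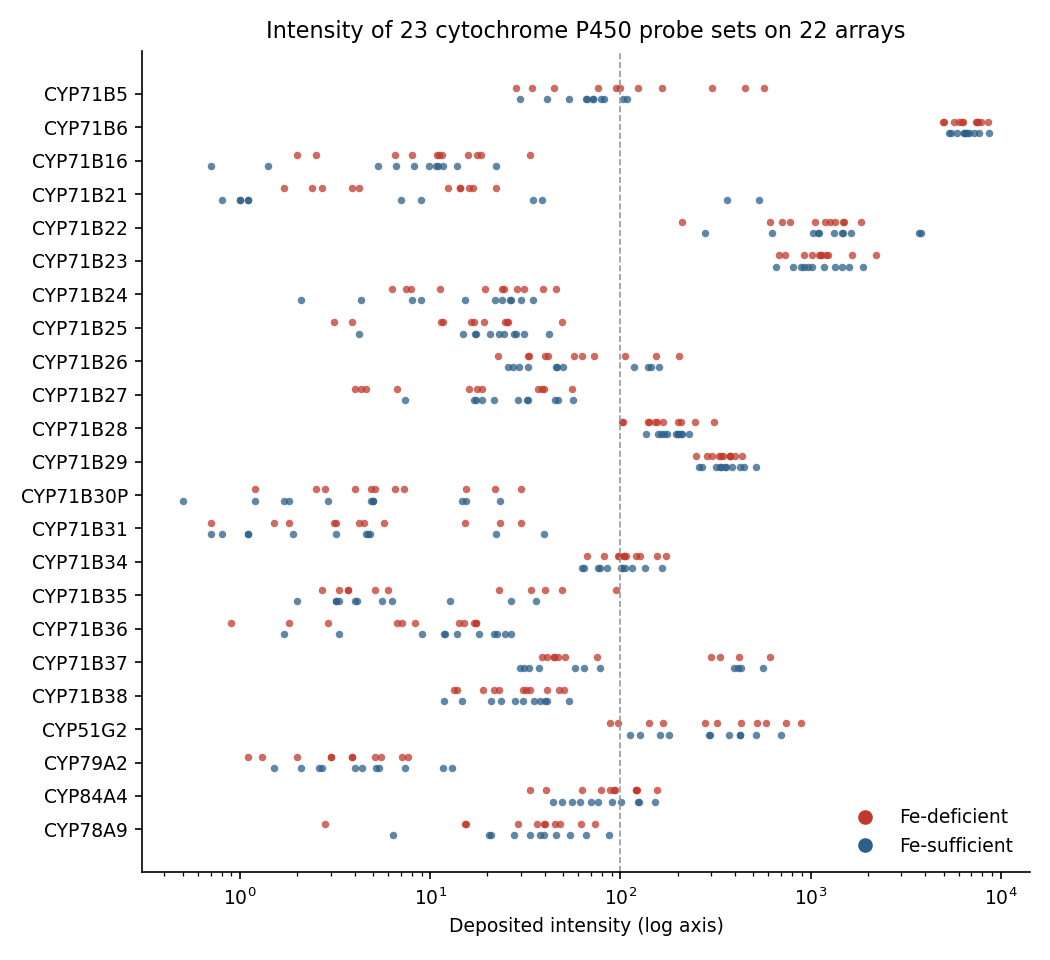
Deposited intensity (log axis) of each of the 23 P450 probe sets on the 22 arrays, with Fe-deficient arrays drawn above Fe-sufficient ones in each row. The dashed line marks an intensity of 100, which 9 probe sets reached as a mean over all arrays. CYP71B6 kept within 4942 to 8709, and 2 Fe-sufficient values of CYP71B21 stand apart from its other 20.

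CYP71B5 was the P450 called between the media at 24 h, higher in Fe-deficient roots. This gene, AT3G53280, encodes a member of the CYP71B subfamily. The paper lists it among the genes strongly raised without Fe, in a subgroup described as a whole as rising rapidly, with large increases by 6 h. Its methods also give primers for CYP71B5 in semi-quantitative RT-PCR. Most genes tested that way are reported as strongly raised at 24 h, although the text does not say whether CYP71B5 was among them. Here CYP71B5 was not called at 6 h, as described below, in deposited values whose processing may differ from that of the paper. Its intensity was 453.2 and 571.7 in Fe-deficient roots at 24 h, against 103.4 and 82.4 in Fe-sufficient roots. Both Fe-deficient values lay above those of all the other 20 arrays, the highest of which was 301.7. The ratio of a single Fe-deficient array to a single Fe-sufficient array at 24 h was 4.38 to 6.94. On the scale of log2 of intensity plus 1, the difference was 2.45 ± 0.81 (SE, 95% interval 0.73 to 4.17), or 5.47-fold. The unadjusted p was 0.00826 and the p adjusted over all probe sets was 1 (limma, Benjamini-Hochberg), so that the call rests on the study's own criterion, which asks for a change of more than 1.5-fold and an unadjusted p under 0.05. The log2 difference was between 2.12 and 2.62 under each alternative run and met the criterion under all of them.

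At the earlier times the media overlapped for CYP71B5. Values at 6 h were 34.3, 99.9 and 301.7 in Fe-deficient roots, against 40.9, 66.0 and 66.7 in Fe-sufficient roots. Replicate 1 was the lowest array of its group in both media at 6 h, and replicate 3 of the Fe-deficient roots was the highest. The log2 difference at 6 h was 0.83 ± 0.66 (SE, limma, unadjusted p = 0.226). It rested on single Fe-deficient arrays. Without Fe-deficient replicate 3 of 6 h it was 0.05 (limma, unadjusted p = 0.932), without Fe-deficient replicate 1 it was 1.60 (unadjusted p = 0.0211), and from replicates 2 and 3 alone it was 1.38 (unadjusted p = 0.0189). At 1 h the Fe-deficient roots had 28.2, 123.4 and 75.8 and the Fe-sufficient roots 29.7, 71.5 and 53.6. At 0 h the Fe-deficient roots had 44.6, 165.4 and 94.7 and the Fe-sufficient roots 79.2, 108.1 and 71.3. The log2 differences were 0.40 ± 0.66 at 1 h and 0.07 ± 0.66 at 0 h (SE), well within the spread between arrays.

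**Figure D2:**
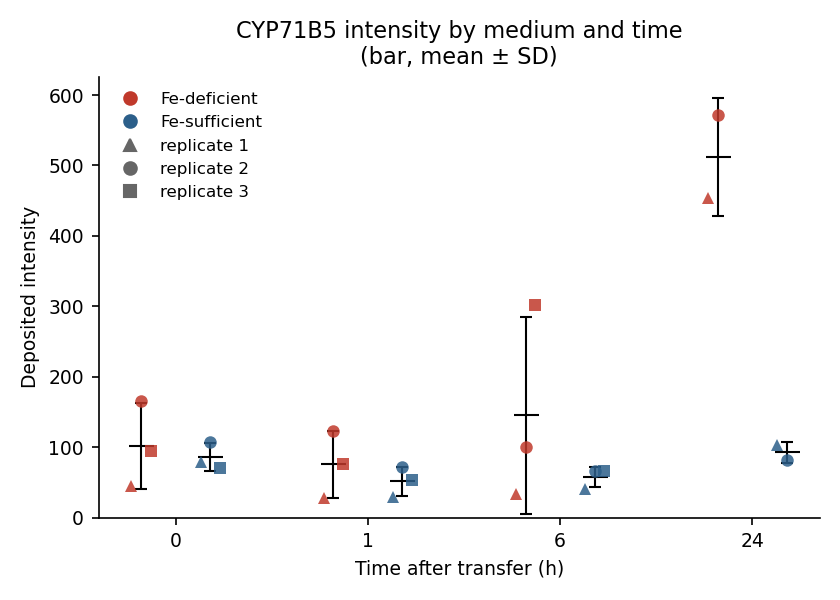
Intensity of CYP71B5 on each array (linear axis) by time after transfer in h, with Fe-deficient roots on the left and Fe-sufficient roots on the right of each time. Marks show the replicate number and bars the mean ± SD (n = 3 at 0, 1 and 6 h, n = 2 at 24 h). The Fe-deficient arrays of 24 h, 453.2 and 571.7, lie above every other array.

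The increase of CYP71B5 over time was seen in the Fe-deficient roots. There, 24 h minus 0 h was 2.50 ± 0.74 on the log2 scale (limma, unadjusted p = 0.00389, adjusted p = 0.508) and 24 h minus 6 h was 2.31 ± 0.74 (unadjusted p = 0.00665). In Fe-sufficient roots 24 h minus 0 h was 0.12 ± 0.74 (unadjusted p = 0.873) and 24 h minus 6 h was 0.70 ± 0.74 (unadjusted p = 0.360). The test of the difference itself, the Fe difference at 24 h minus that at 0 h, gave 2.38 ± 1.05 (limma, unadjusted p = 0.0373, adjusted p = 1.00). Leaving out a single array ended that call for 6 of the 10 arrays, namely both arrays of each medium at 24 h, Fe-deficient replicate 1 of 0 h and Fe-sufficient replicate 2 of 0 h, with log2 values between 1.89 and 2.55 and unadjusted p between 0.0562 and 0.0930. The Fe difference at 24 h minus that at 6 h was 1.62 (unadjusted p = 0.143), with 0.85 without Fe-deficient replicate 1 of 6 h (unadjusted p = 0.373) and 2.40 without Fe-deficient replicate 3 of 6 h (unadjusted p = 0.0195). CYP71B5 was also lower in replicate 1 than in replicates 2 and 3 at 0, 1 and 6 h, with medians of 37.6 and 85.3.

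The 5 probe sets of mean intensity 100 or more whose log2 values followed CYP71B5 most closely over the 22 arrays had Pearson correlations of 0.83 to 0.87. One of them, 253305_at, measures AT4G33666 (r = 0.83), and its Fe difference at 24 h was 1.48 on the log2 scale. Another, 251545_at (r = 0.84), is listed by the study as MTPa2, a member of a zinc transporter family, and its Fe differences were 1.69 at 6 h and 1.55 at 24 h. The other 3, 251942_at, 259819_at and 251405_at, carry no name in the annotation used, and their Fe differences at 24 h were 1.09, 0.47 and 0.47. The correlations were 0.77 to 0.80 over the 20 arrays left without the Fe-deficient ones of 24 h. Among the 9 brighter P450s, CYP71B34 was the closest to CYP71B5 (r = 0.66). All of these share the same arrays and their replicate difference, and the correlations are given as a description.

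The calls between the media were counted over the 23 P450s, and counts this small cannot set them apart from all probe sets. By the criterion of the study, 0 of 23 were called at 0 h (2.04% of all probe sets), 2 at 1 h (1.87%), 1 at 6 h (2.13%) and 1 at 24 h (1.47%), and the last was CYP71B5. With an adjusted p under 0.05 there was none of the 23 at any time by limma (0%, 0.0044%, 0.00879% and 0% of all probe sets at 0, 1, 6 and 24 h), and at an unadjusted p under 0.05 there were 0 (2.8%), 3 (2.39%), 1 (2.73%) and 1 (1.57%). Among the probe sets of mean 100 or more, 0, 0, 0 and 1 of the 9 P450s met the criterion, beside 0.326%, 0.39%, 0.652% and 0.496% of all such probe sets. The median log2 Fe difference over the 23 was 0.07, -0.14, 0.01 and -0.07 at 0, 1, 6 and 24 h, beside 0.01, 0.01, -0.02 and 0.00 over all probe sets. With the replicate number as a block, the count was 1 at 0 h (2.49% of all probe sets in that fit), where CYP71B24 was added, and 2 at 24 h (1.77%), where CYP71B36 was added. The numbers did not pair at 24 h, and with the block crossed there the count at 24 h was 1 (1.69%), without CYP71B36. From replicates 2 and 3 alone the counts were 2 at 0 h (2.73%), 3 at 1 h (4.04%) and 2 at 6 h (3.09%).

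**Figure D3:**
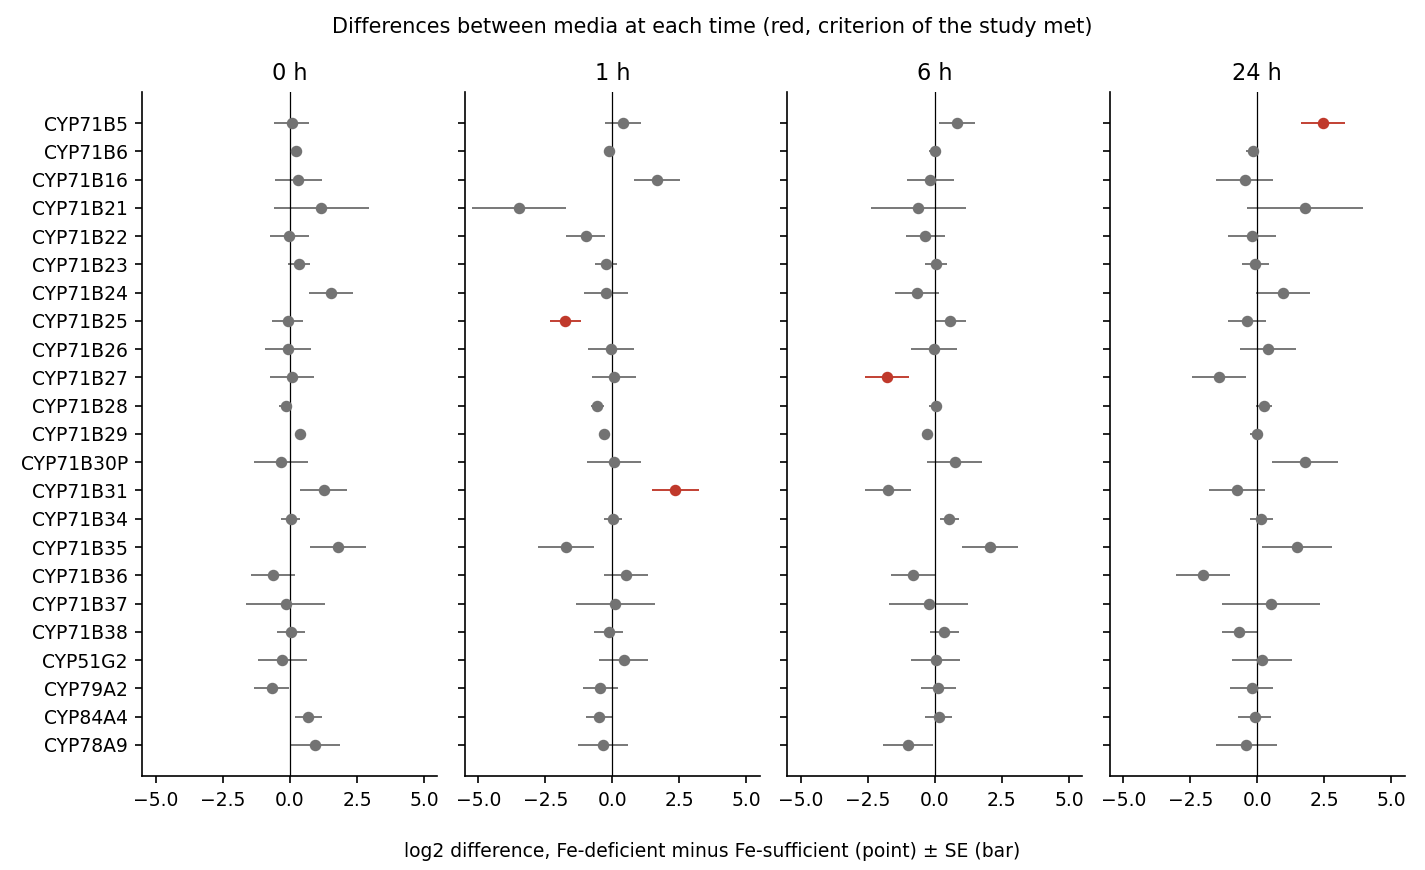
Difference between Fe-deficient and Fe-sufficient roots for the 23 P450 probe sets at 0, 1, 6 and 24 h, as log2 of intensity plus 1 (point) with its standard error (bar). Red points met the criterion of the study: none at 0 h, CYP71B25 and CYP71B31 at 1 h, CYP71B27 at 6 h and CYP71B5 at 24 h, where it stood at 2.45.

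The calls at 1 and 6 h fell on dim probe sets. CYP71B25 read 11.6, 3.1 and 3.9 in Fe-deficient roots at 1 h, against 17.5, 27.7 and 17.2 in Fe-sufficient roots. The groups did not overlap, and the log2 difference was -1.75 ± 0.59 (limma, unadjusted p = 0.00895, adjusted p = 1.00). It kept its direction and its call without any single array, with -2.25 to -1.44, and from replicates 2 and 3 alone it was -2.35 (unadjusted p = 0.000111, adjusted p = 0.225). With a pseudocount of 32 in place of 1 it shrank to -0.47, under the fold of the criterion. CYP71B31, which takes part in linalool metabolism in flowers, read 23.2, 1.8 and 30.1 in Fe-deficient roots at 1 h, against 0.8, 1.1 and 3.2 in Fe-sufficient roots, and 1 Fe-deficient value lay within the Fe-sufficient range. Its log2 difference was 2.35 ± 0.86 (limma, unadjusted p = 0.0152, adjusted p = 1.00). The call was lost without Fe-deficient replicate 1 (1.89) or replicate 3 (1.71) of 1 h, with a pseudocount of 32 (0.53) and from replicates 2 and 3 alone (1.65). CYP71B27 read 4.3, 39.4 and 4.0 in Fe-deficient roots at 6 h, against 47.1, 45.3 and 18.6 in Fe-sufficient roots. Its log2 difference was -1.78 ± 0.82 (limma, unadjusted p = 0.0459, adjusted p = 1.00). It lost its call under 10 of 12 alternatives, with a smallest difference of -0.58. Among these were the replicate block (unadjusted p = 0.0508), the block crossed at 24 h, quantile normalisation (-1.72) and a pseudocount of 32. Replicates 2 and 3 alone and the fit of only the groups compared lost it too. So did leaving out any of 4 of the 6 arrays (Fe-deficient replicates 1 and 3, Fe-sufficient replicates 1 and 2), where it was -1.59 to -1.27.

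Groups that did not overlap were counted as well. At 0 h there were 0 of 23 (6.24% of all probe sets), at 1 h 4 (5.03%), at 6 h 3 (6.15%) and at 24 h, with 2 arrays a group, 6 (23.7%). At 1 h these included the neighbours CYP71B28 and CYP71B29. CYP71B28 had 103.1, 101.3 and 156.4 in Fe-deficient roots, against 208.2, 157.7 and 164.2 in Fe-sufficient roots, a log2 difference of -0.57 ± 0.24 (limma, unadjusted p = 0.0335, adjusted p = 1.00) that was 1.49-fold and fell just short of the fold required. Without Fe-deficient replicate 3, Fe-sufficient replicate 2 or Fe-sufficient replicate 3 it was -0.77, -0.65 or -0.62 and met the criterion, and from replicates 2 and 3 alone it was -0.35 (unadjusted p = 0.218). CYP71B29 had 249.1, 347.4 and 338.9 in Fe-deficient roots and 356.4, 359.1 and 425.1 in Fe-sufficient roots, a log2 difference of -0.30 ± 0.20 (unadjusted p = 0.155). At 0 h its difference had the other sign, 0.38 ± 0.20 (unadjusted p = 0.0738), with 434.9, 284.3 and 400.5 in Fe-deficient roots and 269.5, 260.2 and 319.8 in Fe-sufficient roots. The Fe-deficient mean was thus the higher one at 0 h, where the groups overlapped, and the lower one at 1 h.

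The 3 of 23 P450s whose groups did not overlap at 6 h (6.15% of all probe sets) lay in the run from CYP71B34 to CYP71B37. They differed in direction, and the run was singled out after its values were seen. CYP71B34 had 96.8, 103.8 and 155.8 in Fe-deficient roots, against 78.0, 84.5 and 75.8 in Fe-sufficient roots (log2 0.54 ± 0.34, limma, unadjusted p = 0.134). CYP71B35 had 22.9, 49.3 and 6.0 in Fe-deficient roots, against 3.3, 5.6 and 3.2 in Fe-sufficient roots (2.05 ± 1.05, unadjusted p = 0.0696). It was the reverse for CYP71B35 at 1 h, with 2.7, 3.3 and 3.7 in Fe-deficient roots, against 12.7, 26.7 and 6.3 in Fe-sufficient roots (-1.74 ± 1.05, unadjusted p = 0.118). At 0 h its Fe-deficient mean was already the higher one, 46.5 against 14.0, with overlapping ranges of 5.1 to 94.3 and 2 to 35.8. The 0 h difference met the criterion without Fe-sufficient replicate 2 (2.88) or Fe-deficient replicate 1 (2.92) of 0 h, and not over all arrays. CYP71B36 had 17.5, 17.5 and 6.7 in Fe-deficient roots at 6 h, against 26.6, 22.5 and 21.7 in Fe-sufficient roots (-0.83 ± 0.82, unadjusted p = 0.326), and 7.1 and 1.8 against 13.8 and 24.7 at 24 h (-2.03 ± 1.00, unadjusted p = 0.0589). None of these comparisons met the criterion. With the replicate block, CYP71B35 at 6 h and CYP71B36 at 24 h did (limma, unadjusted p = 0.0397 and 0.0337, adjusted p = 1.00 and 1), and with the block crossed at 24 h neither did. When only the groups compared were fitted, both met it (limma, unadjusted p = 0.0318 and 0.0442), and so did CYP71B35 at 1 h (unadjusted p = 0.0132). CYP71B36 at 24 h met it too in the fit without replicate 1 of 0, 1 and 6 h (unadjusted p = 0.0494). CYP71B35 at 6 h did also without Fe-deficient replicate 3 (2.82) and CYP71B36 at 24 h without Fe-deficient replicate 1 (-2.80).

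Among the brighter P450s other than CYP71B5, some gave intervals that limit how large an Fe difference could be, namely CYP71B6, CYP71B28 and CYP71B29. For CYP71B6 the log2 differences were 0.21, -0.12, 0.01 and -0.18 at 0, 1, 6 and 24 h, and the widest of the 4 intervals, at 24 h, ran from -0.71 to 0.36. Its intensities at 24 h were 6268 and 4942 in Fe-deficient roots and 5443 and 7255 in Fe-sufficient roots. For CYP71B29 the interval at 24 h ran from -0.54 to 0.49, and for CYP71B28 from -0.40 to 0.87. CYP71B23 had 1023 and 1202 in Fe-deficient roots at 24 h and 1348 and 1012 in Fe-sufficient roots, with a wider interval, from -1.14 to 0.99. The standard errors of CYP51G2 and CYP71B37 at 24 h were 1.12 and 1.81, so that large differences are not excluded for them. This fit has no term for the replicate difference described below.

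The calls between times were counted in the same way, and these counts too are small to set beside the shares of all probe sets. With an adjusted p under 0.05 over both media, 0 of 23 were called for 1 h against 0 h (0.0352% of all probe sets), 0 for 6 h against 0 h (0.659%), 0 for 24 h against 0 h (0.246%) and 0 for 24 h against 6 h (0%), all by limma. At an unadjusted p under 0.05 there were 1 (5.98%), 1 (8.92%), 2 (7.59%) and 2 (6.86%). By the criterion of the study the counts were 1 (3.13% of all probe sets), 1 (4.62%), 1 (4.04%) and 2 (3.68%). They were CYP71B25, lower at 1 h, CYP71B22, lower at 6 h, CYP71B5, higher at 24 h, and at 24 h against 6 h CYP71B5, higher, and CYP71B31, lower. The 24 h minus 0 h difference of CYP71B5 over both media was 1.31 ± 0.52 (limma, unadjusted p = 0.0237, adjusted p = 0.541). It lost its call without Fe-deficient replicate 1 of 0 h (1.07) and, at 24 h, without Fe-deficient replicate 2 or Fe-sufficient replicate 1 (1.23 for each). The Fe difference itself differed between 6 h and 0 h for 2 of 23 by the criterion (2.33% of all probe sets), between 24 h and 0 h for 1 (1.7%) and between 24 h and 6 h for 0 (1.48%), and for none with an adjusted p under 0.05 in limma (0% of all probe sets each).

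CYP71B22 was the brightly expressed P450 with a fall after the transfer. At 0 h it had 1258, 1838 and 1474 in Fe-deficient roots and 1464, 1626 and 1483 in Fe-sufficient roots, and at 6 h it had 210.9, 611.3 and 1496 in Fe-deficient roots and 277.3, 1328 and 1112 in Fe-sufficient roots. Replicate 1 was the lowest in both media at 6 h. At 1 h, CYP71B22 had 783.2, 1349 and 1056 in Fe-deficient roots and 626.1, 3801 and 3709 in Fe-sufficient roots. Over both media, 6 h minus 0 h was -1.21 ± 0.51 on the log2 scale (limma, unadjusted p = 0.0317, adjusted p = 0.474). The call was lost without replicate 1 of either medium at 6 h (-0.84 without the Fe-deficient and -0.85 without the Fe-sufficient array) and without replicate 2 of either medium at 0 h (-1.13 and -1.18), and from replicates 2 and 3 alone the difference was -0.57 (unadjusted p = 0.0623). At 24 h the values were 708 and 1196 in Fe-deficient roots and 1091 and 1027 in Fe-sufficient roots, all below the lowest 0 h value. It was the single P450 of the 23 whose 24 h and 0 h arrays did not overlap (3.39% of all probe sets), although the log2 difference of -0.62 ± 0.57 had an unadjusted p of 0.298. The touch-responsive genes CML37, CML38 and STZ were all 3 lower at 6 h than at 0 h by the criterion of the study. Of all probe sets, 4.62% met it in either direction. The 3 touch genes summed to 1076 to 2029 on the 6 h arrays and 3092 to 6509 on the 0 h arrays. Their part in the lower values of CYP71B22 at 6 h was not tested. The 6 h and 0 h harvests also differed in clock hour, which cannot be told apart from time after the transfer.

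CYP71B25 was lower at 1 h than at 0 h over both media, with a log2 difference of -1.33 ± 0.42 (limma, unadjusted p = 0.00575, adjusted p = 0.496). The difference was -2.16 in Fe-deficient roots alone (unadjusted p = 0.00210) and -0.50 in Fe-sufficient roots alone (unadjusted p = 0.412), and with a pseudocount of 32 it was -0.45 over both. The log2 difference of CYP71B31 between 24 h and 6 h was -1.84 ± 0.68 (limma, unadjusted p = 0.0163, adjusted p = 0.613), with 1.5 and 0.7 in Fe-deficient and 4.8 and 1.1 in Fe-sufficient roots at 24 h, and this call was lost without replicate 2 of 24 h in Fe-deficient (-1.70) or Fe-sufficient roots (-1.47) and with a pseudocount of 32 (-0.36). CYP71B28 at 24 h was 0.47 ± 0.19 above 0 h (unadjusted p = 0.0266, adjusted p = 0.555), short of the fold required.

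The run of CYP71B21, CYP71B22 and CYP71B23 held a departure of single arrays, and CYP71B21 was singled out after its values were seen. At 1 h, CYP71B21 read 2.4, 3.9 and 15.9 in Fe-deficient roots, against 1.0, 364.5 and 536.1 in Fe-sufficient roots. On the other 20 arrays it never exceeded 38.8. CYP71B22, its neighbour, had 783.2, 1349 and 1056 in Fe-deficient roots at 1 h, against 626.1, 3801 and 3709 in Fe-sufficient roots, and the same replicates 2 and 3 were high. CYP71B23, the next gene, did not share this, with 683.7, 734.0 and 1655 in Fe-deficient roots and 809.7, 1170 and 1455 in Fe-sufficient roots.

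Neither difference met the criterion in the main fit, over all 3 replicates, with a pseudocount of 1 and no replicate block. For CYP71B21 it was -3.48 ± 1.77 (limma, unadjusted p = 0.0666, adjusted p = 1.00), and for CYP71B22 -0.99 ± 0.72 (unadjusted p = 0.189). CYP71B21 met it with a pseudocount of 32 (-2.32, unadjusted p = 0.00317) and with the replicate block (unadjusted p = 0.0200). Without Fe-sufficient replicate 1 of 1 h the differences were -6.08 (unadjusted p = 0.000510, adjusted p = 0.474) and -1.86 (unadjusted p = 0.0145), and from replicates 2 and 3 alone -5.61 and -1.65 (adjusted p = 0.554 and 0.471). The touch genes summed to 5148, 4295 and 2446 on the Fe-deficient arrays of 1 h, against 2994, 6834 and 2582 on the Fe-sufficient arrays, so that Fe-sufficient replicate 2 was the highest and Fe-sufficient replicate 3 was within the range of the other arrays of 1 h. Their part in the values of CYP71B21 and CYP71B22 was not tested.

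**Figure D4:**
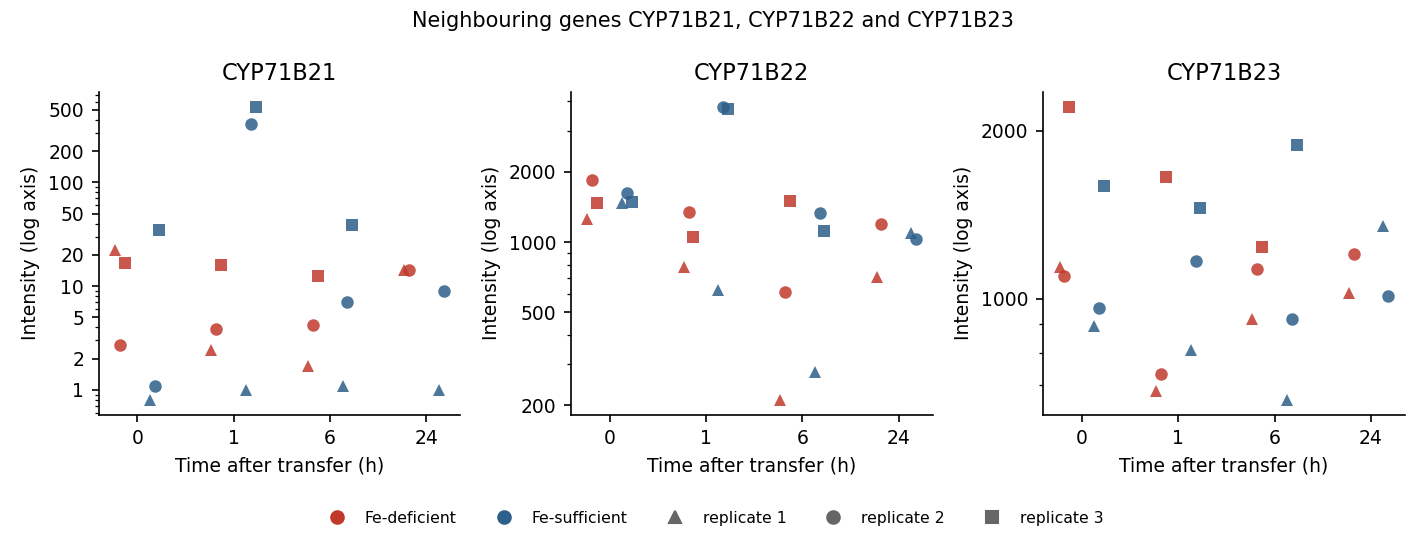
Intensity (log axis) of the neighbouring genes CYP71B21, CYP71B22 and CYP71B23 on each array by time after transfer in h, with Fe-deficient roots on the left of each time and marks for the replicate number. Fe-sufficient replicates 2 and 3 of 1 h stand at 364.5 and 536.1 for CYP71B21 and at 3801 and 3709 for CYP71B22, and not apart for CYP71B23.

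The replicate number separated CYP71B37, CYP71B26, CYP84A4 and CYP51G2, none of which was called between the media or the times. Between replicate 1 and replicates 2 and 3 of 0, 1 and 6 h, 9 of 23 had an adjusted p under 0.05, or 39.1%, beside 28.9% of all probe sets, and for 4 of 23 the values did not overlap (7.18% of all probe sets). This comparison was added after the values were seen. CYP71B37 had 300.0 to 614.2 on the replicate 1 arrays of both media, with a median of 411.3, and 29.8 to 78.3 on the arrays of replicates 2 and 3, with a median of 45.0. The log2 difference was 3.21 ± 0.17, or 9.25-fold (limma, adjusted p = 1.61e-07). Arrays of the same number deviated together, and the fit treated them as independent. The standard errors, p-values and counts of this comparison therefore describe these arrays, not the spread between replicate numbers. None of its 3 neighbours CYP71B34, CYP71B35 and CYP71B36 had an adjusted p under 0.05 in that comparison.

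CYP71B26 was higher in replicate 1 as well, with 73.0 to 154.1 on those arrays and 22.7 to 57.2 on the others (log2 1.73 ± 0.22). CYP84A4, an enzyme of arabidopyrone synthesis, was higher at 100.2 to 155.9, against 33.6 to 93.7 (1.06 ± 0.16). CYP51G2 went the other way, with 88.0 to 180.2 in replicate 1 and 279.1 to 886.1 in replicates 2 and 3 (-1.93 ± 0.22, or 3.81-fold lower). At 24 h the high values of CYP71B37 were on Fe-deficient replicate 1 (420.3) and Fe-sufficient replicate 2 (412.8), and the low ones on Fe-deficient replicate 2 (75.2) and Fe-sufficient replicate 1 (37.2). CYP71B26 and CYP84A4 were high on the same 2 arrays and CYP51G2 was low on them, at 142.1 and 162.0, against 429.0 on Fe-deficient replicate 2 and 293.6 on Fe-sufficient replicate 1. Over all 22 arrays CYP51G2 and CYP71B37 had a Pearson correlation of -0.88.

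**Figure D5:**
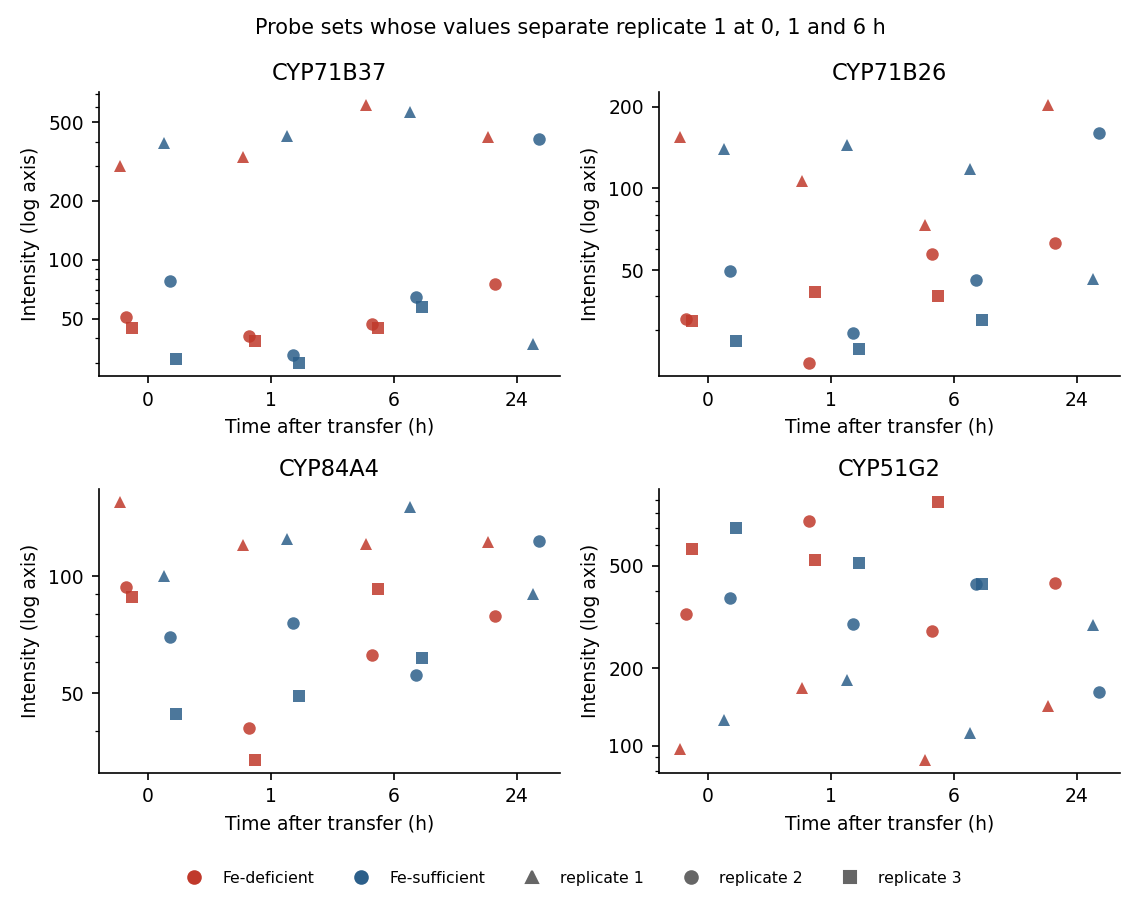
Intensity (log axis) of CYP71B37, CYP71B26, CYP84A4 and CYP51G2 on each array by time after transfer in h, with Fe-deficient roots on the left of each time and marks for the replicate number. Replicate 1 of both media stands apart at 0, 1 and 6 h, at 300.0 to 614.2 for CYP71B37, and at 24 h the arrays that stand with it are Fe-deficient replicate 1 and Fe-sufficient replicate 2.

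Beside the P450s, genes of heme supply and of the Fe response were counted. Of 26 symbols listed for tetrapyrrole and heme synthesis genes, synonyms included, 8 had a named probe set, too few to set against a share of all probe sets. Of these 8, 0 met the criterion of the study between the media at 6 or 24 h (2.13% and 1.47% of all probe sets). Their median log2 Fe difference was -0.02 at 6 h and -0.06 at 24 h, beside -0.02 and 0.00 over all probe sets. HEMB1, a porphobilinogen synthase gene, differed by 0.06 ± 0.15 at 24 h. HEMB2 alone of the 8 met the criterion for 6 h against 0 h over both media (4.62% of all probe sets). It was higher at 6 h (0.70 ± 0.27, limma, unadjusted p = 0.0195, adjusted p = 0.388), and it was dim, with a mean intensity of 44.7. Of 20 Fe-response genes listed, 3 had a named probe set, and all 3 met the criterion at 24 h (1.47% of all probe sets). The transcription factor gene BHLH101, dim with a mean intensity of 53.6, was higher in Fe-deficient roots by 3.02 ± 0.99 on the log2 scale. PYE, another regulator of the Fe response, was higher by 0.99 ± 0.25, and BGLU42, a glucosidase gene, by 1.48 ± 0.64 (limma, adjusted p = 1 for each of the 3). The study and earlier work on Fe deficiency chose such genes, so their direction is not independent evidence.

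By role, the lists of P450s held few measured members. CYP71B6 was the measured gene of the 17 listed for glucosinolate, indole and camalexin metabolism, a list that did not hold CYP79A2, and CYP71B5 that of the 3 listed for coumarins and Fe deficiency, where it had been put with its result known. The others were CYP84A4 for phenylpropanoids (1 of 7), CYP51G2 for sterols (1 of 8 symbols, synonyms included) and CYP78A9, a gene that affects fruit and seed size, for organ size (1 of 6). Apart from CYP71B5, none of these met the criterion between the media at any time over all arrays. CYP78A9 met it at 0 h from replicates 2 and 3 alone (1.94, limma, unadjusted p = 0.0164), and CYP84A4 at 1 h without Fe-deficient replicate 1 (-1.05, unadjusted p = 0.0463). At 24 h the log2 Fe difference was -0.10 ± 0.62 for CYP84A4, 0.18 ± 1.12 for CYP51G2 and -0.41 ± 1.15 for CYP78A9. No gene of the lists for fatty acid and suberin, brassinosteroid, gibberellin, abscisic acid, cytokinin, jasmonate, strigolactone, carotenoid or triterpene P450s had a single-gene probe set under the symbol used. The same held for the 10 symbols listed for electron donors of P450s. None of these genes was analysed here.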

How the data were processed

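Total root RNA was hybridised to 22 Affymetrix ATH1 arrays. The values that the authors deposited are linear intensities, 1 for each probe set on each array, scaled to nearly the same trimmed mean on every array. Their methods name AffylmGUI with a probe-level linear model, and the program behind the deposited values is not given in the sources used here. No detection calls were used, and the number of arrays limits the precision.

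Of 22810 probe sets, 64 controls were left out. After adding 1, log2 values were fitted with limma 3.58.1 (R 4.3.3) as 8 groups of medium and time (14 residual and 1.81 prior degrees of freedom), over all probe sets, with Benjamini-Hochberg adjustment. The script was tested on simulated data. Fe comparisons were called by the criterion of the study (unadjusted p under 0.05 and over 1.5-fold), times at an adjusted p under 0.05. The p-values measure the spread between these arrays. The array annotation gives 1 symbol for 13513 probe sets, several for 503 and none for 8730. Loci and gene order are from TAIR10.1.

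Same-numbered replicates of the media deviated together at 0, 1 and 6 h (r = 0.12 to 0.45), so that the numbers pair them, and not at 24 h (r = -0.41).

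Named were P450s of mean intensity 100 or more that met the criterion in an Fe comparison, dimmer ones that met it at 6 and 24 h, CYP71B5, up to 4 of each role list, and the 5 probe sets most like CYP71B5. No P450 met the rule for time. Other P450s named were chosen after their values were seen. Members and lists were chosen with earlier results of these data known. Figures were drawn with matplotlib.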

Additional observations from a re-analysis of the deposited data

Results flagged for a closer look

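For 3 P450s the Fe difference itself differed between times by the interaction test in limma at the criterion of the study, and none had an adjusted p under 0.05 (1.00 for each). For CYP71B5 the Fe difference at 24 h minus that at 0 h was 2.38 on the log2 scale (unadjusted p = 0.0373). For CYP71B29 the Fe difference at 6 h minus that at 0 h was -0.66 (unadjusted p = 0.0315), with 376.8, 303.0 and 375.7 in Fe-deficient roots and 336.2, 515.4 and 445.8 in Fe-sufficient roots at 6 h. For CYP71B31 it was -3.00 (unadjusted p = 0.0260), with 4.2, 3.1 and 5.7 in Fe-deficient roots and 4.7, 39.7 and 22.2 in Fe-sufficient roots at 6 h, all at low intensity. Of all probe sets, 2.33% met the criterion for 6 h minus 0 h and 1.7% for 24 h minus 0 h. Leaving out 1 array ended the call for 7 of the 12 arrays for CYP71B29, with -0.63 to -0.52, and for 5 of the 12 for CYP71B31, with -2.82 to -2.39.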

How the results depend on the processing

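Each group had 2 or 3 arrays, and 4 of the 23 P450s, 3 of them dim, made the calls between the media. Of the P450 probe sets called between the media, the count of 0 at 0 h was 1 with the replicate block and with it crossed at 24 h, and 2 from replicates 2 and 3 alone. The count of 2 at 1 h was 1 with a pseudocount of 32 (CYP71B21, with CYP71B25 and CYP71B31 lost), 0 among probe sets of mean 100 or more and 0 at an adjusted p under 0.05. The count of 1 at 6 h was 0 after quantile normalisation, with a pseudocount of 32, among probe sets of mean 100 or more, at an adjusted p under 0.05 and with the crossed block, and 2 from replicates 2 and 3 alone. The count of 1 at 24 h was 2 with the replicate block, when only the groups compared were fitted, and in the fit without replicate 1 of 0, 1 and 6 h, which kept all arrays of 24 h, and 0 at an adjusted p under 0.05. The cause of these shifts was not tested. Leaving out 1 array gave 0 to 1 at 0 h, 2 to 4 at 1 h, 0 to 1 at 6 h and 1 to 3 at 24 h. The time counts of 0 were 1, 1, 1 and 2 by the criterion of the study and 0 under every other alternative, leaving out 1 array included (0 to 0). The count of 0 for Fe responses that differ between times at an adjusted p under 0.05 did not move. In the main fit 0% of all probe sets were called at that threshold, so this count had little room to move. The replicate block gave 1, 3, 1 and 2 calls between the media at 0, 1, 6 and 24 h and the pairing crossed at 24 h gave 1, 3, 0 and 1. The crossed pairing and replicates 2 and 3 alone were chosen after seeing the data. The count of 9 between replicate 1 and the others was 8 to 10. Over the single genes described, 200 of the alternative values kept direction and side of the criterion, 53 lost and 13 gained the call, and none reversed. Quantile normalisation moved the median of all probe sets by 0.04 or less on the log2 scale.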
